A study of Mus musculus with 6 samples.

Results

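The 10 genes described here make or use nicotinamide adenine dinucleotide (NAD): Nmrk2, Nmrk1, Nampt, Nmnat1, Nmnat3, Nadsyn1, Nnmt, Sirt1, Sirt3 and Parp1. They were taken by gene name from a deposited table of 43346 genes, and all 10 were found, each on a single row. The set was chosen by a measured value, the low Nmrk2 count in the knockout libraries against the vehicle libraries, so the members' differences between groups are a description, without a test. RNA sequencing covered gastrocnemius muscle, a mixed-fibre calf muscle, of male mice aged 6 months, in 6 libraries with a sample number each. The labels do not say outright that each came from its own mouse, so p-values measure the spread between these samples. All 6 were from Vdrfl/fl.actin iCre mice: exon 3 of Vdr, the vitamin D receptor gene, was flanked by loxP sites, and a Cre recombinase fused to a mutated estrogen receptor was driven by the skeletal muscle actin promoter ACTA1. For the 3 knockout libraries the mice received tamoxifen (100 mg/kg, 75 microliters, injected for 5 days) and for the 3 vehicle libraries the carrier alone, 10% ethanol in corn oil. All mice were fed a diet with 0.81% calcium and 3.4 IU/g vitamin D3, and glucose tolerance and strength were tested 10 days after the injections, before the muscle was taken. Replicate numbers 1 to 3 are only names.

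Loss of exon 3, active Cre and tamoxifen exposure coincided in the knockout group and cannot be told apart, since tamoxifen-treated Vdrfl/fl mice without Cre were not analysed here. The targeted gene itself was scarcely expressed: Vdr reads numbered 52, 27 and 40 after tamoxifen, against 46, 48 and 61 after vehicle. Reads were counted over the whole gene and not over exon 3, so they check the labels only in part. Library totals ran from 30486874 to 39909535 reads. Fast-twitch fibre genes summed to between 87363 and 215896 CPM (read counts scaled to library size) in every library, as belongs to muscle, and knockout replicate 2 held the lowest of these sums. In bulk muscle, fewer cells of a type and less RNA per cell cannot be told apart.

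NAD carries electrons between metabolic enzymes and is also consumed by enzymes that cut it and release nicotinamide. Muscle rebuilds it mainly by salvage: Nampt encodes the enzyme that turns nicotinamide into nicotinamide mononucleotide, while Nmrk1 and Nmrk2 encode kinases that make the same intermediate from nicotinamide riboside. Nmnat enzymes then join the mononucleotide to an adenylyl group to give NAD, and Nadsyn1 completes the branch that starts from nicotinic acid or tryptophan. Nmrk2 is known as the muscle-enriched kinase and was first described as a muscle integrin-binding protein.

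Nmrk2 (ENSMUSG00000004939) lies on the minus strand of chromosome 10 at chr10:81198170-81202037 in mm10, and the GENCODE M21 annotation gives it 1 transcript of 7 exons. The 250 bases before its RefSeq start are shown because Nmrk2 is the member that separated the groups. The sequence is from RefSeq (GRCm38.p6, chr10:81202038-81202287, minus strand), with capitals marking each match to a searched motif. The M21 transcript starts slightly further upstream, at 81202051, so the last bases of the window lie inside it, and distances here are from the RefSeq start.

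Nmrk2 upstream: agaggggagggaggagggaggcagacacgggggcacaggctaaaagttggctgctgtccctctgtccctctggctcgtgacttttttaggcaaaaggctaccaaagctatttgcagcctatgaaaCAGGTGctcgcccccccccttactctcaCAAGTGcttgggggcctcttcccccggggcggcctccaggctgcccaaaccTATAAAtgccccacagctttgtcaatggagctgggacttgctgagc

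Both strands were searched for 6 motifs. The E-box, CANNTG, the core bound by myogenic and other helix-loop-helix factors, matched at 125 and 97 bases before the start as CAGGTG and CAAGTG, and 63.3% of 22117 promoter windows of this length hold an E-box. A TATA box, TATAAA, began 46 bases before the start, and 11.2% of the windows hold one on either strand. The AP-1 motif TGANTCA, the CRE motif TGACGTCA, the CArG box of serum response factor and a direct repeat of the vitamin D receptor type with a spacer of 3 bases had no match in this window, and 6.13%, 1.92%, 1.34% and 0.208% of the windows hold them. A match is a run of letters and not a measured binding site.

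Nmrk2 reads were far fewer in the knockout libraries. Scaled to library size, its level in the vehicle libraries was 321, 341 and 281 CPM, for replicates 1 to 3, while the knockout libraries held 117, 81.8 and 61.5 CPM. The groups did not overlap. The vehicle mean was 314 ± 30.9 CPM (SD, n = 3), against 86.7 ± 27.9 CPM (SD, n = 3) for knockout. Knockout over vehicle, this gave a log2 fold change of -1.86 (SE 0.25, 95% interval -2.42 to -1.30), a 3.63-fold lower level. These are the values for which the gene was chosen. Raw counts were 4011, 2827 and 2304 in the knockout libraries and 10372, 12456 and 10762 in the vehicle libraries, so counting error is small beside the spread between libraries.

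The other kinase and the main salvage enzyme had overlapping groups. Nmrk1, which catalyses the same step in most tissues, was at 5.47, 4.20 and 4.70 CPM in the knockout and 4.37, 4.93 and 5.71 CPM in the vehicle libraries. The 2 groups were interleaved, with a log2 fold change of -0.06 (SE 0.23, 95% interval -0.59 to 0.46). Nampt, the rate-limiting salvage enzyme, was at 255, 223 and 216 CPM in the knockout and 213, 230 and 212 CPM in the vehicle libraries. The Nampt groups overlapped, with a log2 fold change of 0.08 (SE 0.17, 95% interval -0.30 to 0.47).

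**Figure D1:**
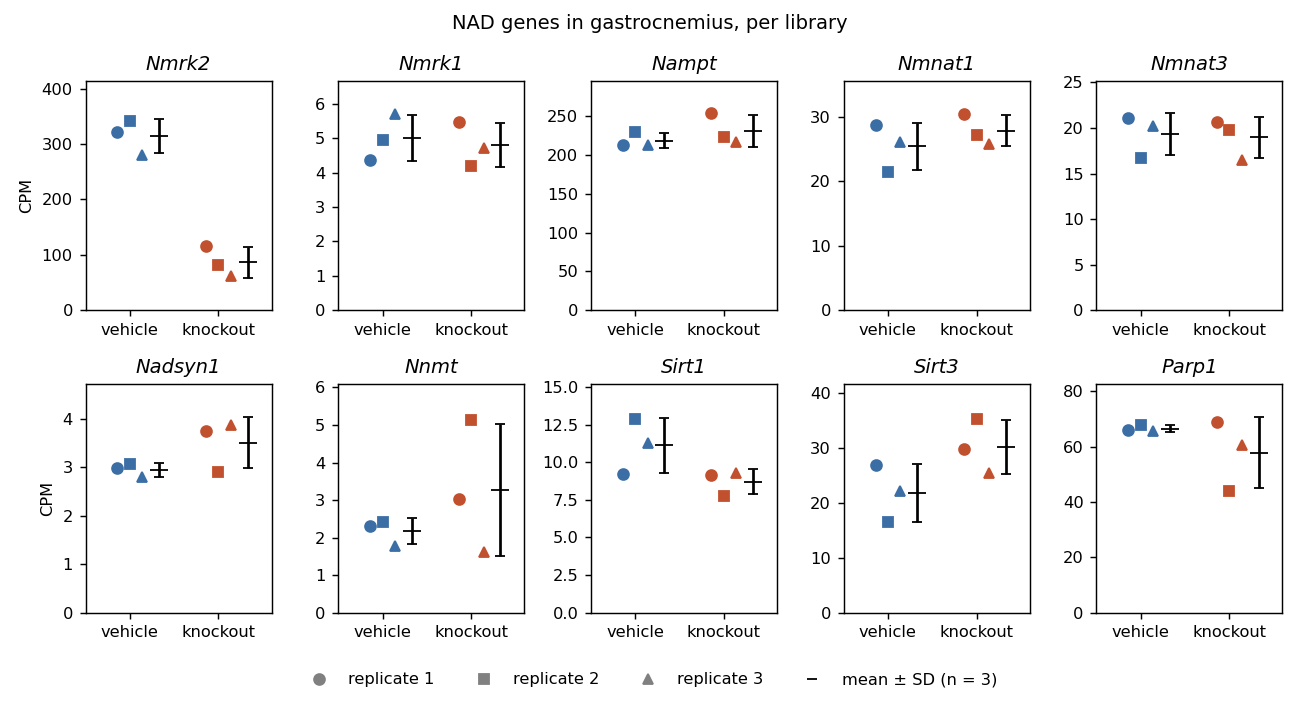
Each panel plots 1 gene, with TMM-scaled CPM on the vertical axis from 0, the 3 vehicle libraries in blue and the 3 knockout libraries in red, and the mean ± SD (n = 3) beside them. The Nmrk2 knockout libraries lie between 61.5 and 117 CPM, below the vehicle libraries at 281 to 341, whereas the groups of the other 9 genes overlap.

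The genes of the later steps to NAD overlapped between groups. Nmnat1, the nuclear enzyme that forms NAD from the mononucleotide, was at 30.4, 27.2 and 25.7 CPM in the knockout and 28.6, 21.4 and 26.1 CPM in the vehicle libraries (log2 fold change 0.13, SE 0.17). Nmnat3, its mitochondrial counterpart, was at 20.7, 19.7 and 16.5 CPM and at 21.1, 16.7 and 20.2 CPM (log2 fold change -0.03, SE 0.17). For both genes vehicle replicate 2 was lower than the other vehicle libraries. Nadsyn1, NAD synthetase, was at 3.75, 2.89 and 3.87 CPM in the knockout and 2.97, 3.07 and 2.79 CPM in the vehicle libraries (log2 fold change 0.25, SE 0.25). Knockout replicate 2 alone kept the Nadsyn1 groups from separating.

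Among the NAD-consuming members, Sirt1 had a lower and Sirt3 a higher estimate in knockout. Sirt1, a nuclear NAD-dependent deacetylase, was at 9.13, 7.73 and 9.27 CPM in the knockout and 9.23, 12.9 and 11.3 CPM in the vehicle libraries. Its groups met at knockout replicate 3 and vehicle replicate 1, with an estimated log2 fold change of -0.35 (SE 0.20, 95% interval -0.80 to 0.09). Sirt3, the main mitochondrial deacetylase, was at 29.8, 35.4 and 25.4 CPM and at 26.9, 16.5 and 22.1 CPM, with a log2 fold change of 0.47 (SE 0.21, 95% interval -0.01 to 0.94). Here too 1 library of each group crossed, knockout replicate 3 and vehicle replicate 1. Parp1, which builds poly(ADP-ribose) at DNA breaks, was at 69.0, 43.8 and 60.5 CPM in the knockout and 66.1, 67.8 and 65.7 CPM in the vehicle libraries. Its vehicle libraries were tight, knockout replicate 2 was low, and the log2 fold change was -0.20 (SE 0.19).

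Nnmt, which methylates nicotinamide and so removes it from salvage, was the most variable member. It was at 3.02, 5.12 and 1.63 CPM in the knockout and 2.32, 2.41 and 1.77 CPM in the vehicle libraries, and knockout replicates 2 and 3 were its highest and lowest libraries. Its estimated log2 fold change, 0.59 (SE 0.40), had a 95% interval from -0.32 to 1.49. It was 0.10 without knockout replicate 2 and 0.91 without knockout replicate 3. Nnmt is known to be abundant in adipose tissue and fibroblasts. The 6 adipocyte markers, all detected in every library, summed to 197, 208 and 54.9 CPM in the knockout and 65.9, 68.5 and 23.7 CPM in the vehicle libraries. The 6 fibroblast markers, also detected in every library, summed to 458, 1252 and 940 CPM and to 625, 671 and 496 CPM. Knockout replicate 2 was highest in Nnmt and in both lists. In the other knockout libraries the fibroblast sum went the other way. Replicate 1 had the lowest sum of all libraries and the next highest Nnmt, and replicate 3 the next highest sum and the lowest Nnmt. The part of these cell types in the Nnmt values was not tested.

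In edgeR, 0 of the 10 members had an adjusted p below 0.05, beside 0% of the 15583 genes tested. At an unadjusted p below 0.05 there was 1 member, Nmrk2, beside 7.44% of all genes. DESeq2 called 1 member, again Nmrk2, beside 0.700% of genes. The groups did not overlap, with knockout lower, in 1 member, beside 6.48% of genes, and with knockout higher in 0, beside 5.83%. Estimates were higher in knockout for 5 of the 10 members, beside 52.9% of all genes. Nothing is read from these counts, because the contrast was used to choose the set. The median log2 fold change was 0.03 over the 10 members and 0.02 over all genes.

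Per transcript length, Nmrk2 was the most abundant member in vehicle muscle and shared the top with Nampt in knockout muscle. Levels between genes are compared in FPKM, the deposited counts scaled to gene length and library total. Nmrk2 was at 168, 182 and 146 FPKM in the vehicle libraries, mean 165 ± 17.8 (SD, n = 3), and Nampt at 45.1, 49.5 and 44.9 FPKM. In the knockout libraries Nmrk2 was at 57.8, 50.4 and 35.6 FPKM and Nampt at 51.0, 55.7 and 50.6 FPKM, so that their ranges overlapped. By mean FPKM over the 6 libraries, Nmrk2 ranked 489 and Nampt 990 among the 15583 genes tested.

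Below Nampt the vehicle order was Sirt3 at 13.4 ± 3.11, Parp1 at 12.2 ± 0.339, Nmnat1 at 8.08 ± 1.10, Nmnat3 at 3.73 ± 0.408 and Sirt1 at 2.02 ± 0.351 FPKM (SD, n = 3 each). Nmrk1 at 1.45 ± 0.192, Nnmt at 1.33 ± 0.222 and Nadsyn1 at 0.862 ± 0.0496 FPKM closed it. The ranges of Sirt3 and Parp1 overlapped, as did those of Nmrk1 and Nnmt, and the other neighbours in this order were apart in all 3 vehicle libraries. In knockout libraries the neighbours in order with overlapping ranges were Nampt and Nmrk2, Parp1 and Nmnat1, Nmnat3 and Nnmt, and Nnmt and Sirt1. The wide Nnmt range there, 1.10 to 3.68 FPKM, also overlapped those of Nmrk1 and Nadsyn1 further down. Muscle thus held both riboside kinases, but at very different levels: the ratio of Nmrk2 to Nmrk1 FPKM was 134, 126 and 89.3 in the vehicle and 38.8, 35.4 and 23.8 in the knockout libraries.

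Nmrk2, Nmrk1, Nampt, Naprt and Qprt encode the enzymes that make a nicotinamide or nicotinic acid mononucleotide, Qprt from the tryptophan product quinolinic acid. Their summed FPKM was 216, 234 and 195 in the vehicle and 112, 112 and 90.2 in the knockout libraries. Nmrk2 made up 77.8%, 77.7% and 75.2% of that sum in the vehicle and 51.7%, 45.1% and 39.4% in the knockout libraries. These shares describe transcripts, and neither enzyme activity nor NAD was measured here.

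**Figure D2:**
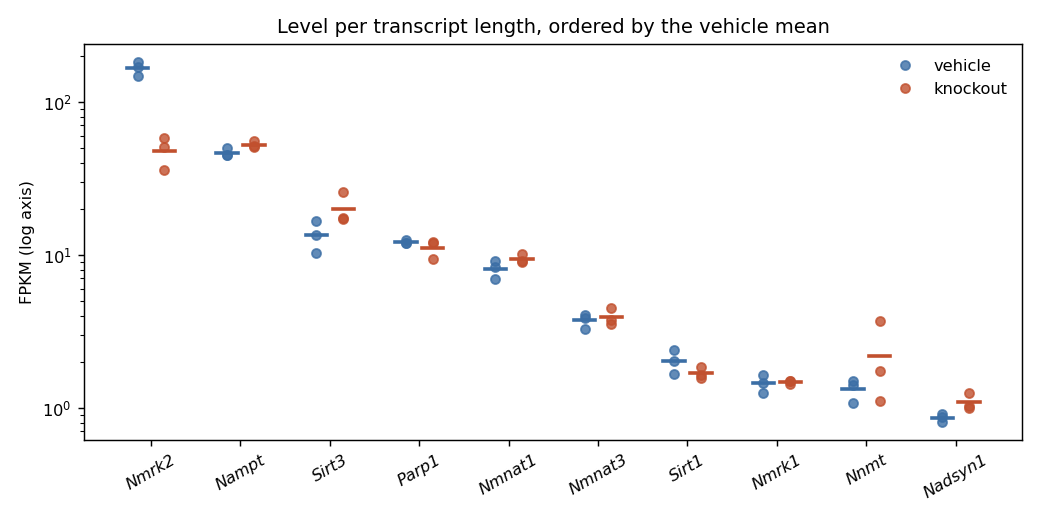
The vertical axis gives the deposited FPKM on a log scale for each member, ordered by the vehicle mean; points are libraries and bars the mean of 3. Nmrk2 sits at 146 to 182 FPKM in vehicle and 35.6 to 57.8 in knockout libraries, where it meets Nampt.

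The profiles most like that of Nmrk2 belonged to genes outside NAD metabolism. Likeness was measured as the root mean square distance between log2 CPM profiles over the 6 libraries, each centred on its mean, among 11324 named protein-coding genes with a mean of at least 1 CPM. The 5 nearest were Atf3, a stress-induced transcription factor, at 0.29, Chia1, a chitinase, at 0.40, Chrne, the adult acetylcholine receptor subunit, at 0.41, Golga7b at 0.43 and Tpx2, a spindle protein, at 0.44. Since Nmrk2 was chosen for its difference, genes of like profile differ the same way by construction. Atf3 was at 97.0, 77.6 and 82.7 CPM in the knockout and 274, 250 and 219 CPM in the vehicle libraries. The nearest other member was Sirt1, at a distance of 0.84 and rank 944, followed by Parp1 at 0.88 and rank 1571. Nampt was at 1.01 and rank 5256. Among the listed pathway genes, Parp16 came nearest, at 0.64 and rank 69, then Prkag3 at 0.72 and rank 212 and Afmid at 0.78 and rank 438.

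**Figure D3:**
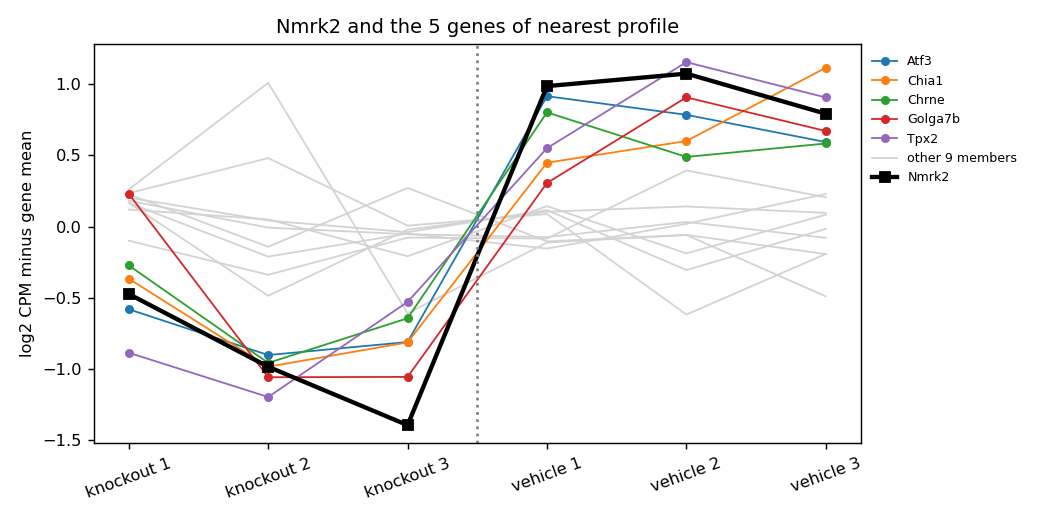
For each gene the vertical axis gives log2 CPM minus the mean of that gene over 6 libraries; the black line is Nmrk2, the coloured lines its 5 nearest genes and the grey lines the other 9 members. Lines only join the values of a gene, since replicates have no order. Nmrk2 runs from -1.40 in knockout replicate 3 to 1.07 in vehicle replicate 2.

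NAD genes outside the members were tested, from 7 lists covering salvage, synthesis from nicotinic acid and tryptophan, NAD phosphorylation and transport, sirtuins, ADP-ribosylation, NAD cleavage and clearance. Of 58 listed genes, 48 had enough reads to test. In edgeR 0 passed at an adjusted p below 0.05, beside 0% of all genes, the smallest adjusted p being 0.593. DESeq2 called 0, beside 0.700% of all genes. At an unadjusted p below 0.05 there were 7, beside 7.44% of all genes. Estimates were higher in knockout for 33, beside 52.9% of all genes, and lower for 15, with a median log2 fold change of 0.16, beside 0.02 over all genes. The groups did not overlap in 2 genes with knockout higher, beside 5.83% of all genes, and in 5 with knockout lower, beside 6.48%.

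In the salvage list 5 of 6 tested genes had higher and 1 a lower estimate, and none passed in edgeR, beside 0% of all genes. Pnp, the phosphorylase that splits nicotinamide riboside, was at 10.2, 21.7 and 13.1 CPM in the knockout and 8.11, 9.51 and 9.97 CPM in the vehicle libraries. Its groups did not overlap, and the log2 fold change was 0.70 (SE 0.27; edgeR adjusted p = 0.645). Nt5c2, a cytosolic nucleotidase, was at 0.80 (SE 0.27; edgeR adjusted p = 0.628). Nt5e, the surface nucleotidase CD73, was at -0.68 (SE 0.39), and Slc29a1, a nucleoside transporter and the most abundant gene of the list per length, at 0.15 (SE 0.18). Nmnat2 and Slc12a8 had at most 18 and 12 reads in any library and were not tested.

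Several genes of the tryptophan branch had very few reads. Of 13 genes of the de novo and nicotinic acid list, 7 had too few reads to test, among them Tdo2, Kmo, Kynu, Haao and Acmsd, none with more than 12 reads in a library. Ido1, the interferon-inducible dioxygenase of the first step, had 11, 30 and 35 reads in the knockout and 4, 14 and 5 in the vehicle libraries, for a log2 estimate of 1.71 (SE 0.67; edgeR adjusted p = 0.645). Naprt, which starts the nicotinic acid branch, was at 0.72 (SE 0.34), and Afmid, a formamidase of the tryptophan branch, at -0.47 (SE 0.24) without overlap of the groups. Kyat1, a kynurenine aminotransferase, was the most abundant per length and was at -0.07 (SE 0.15).

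Genes that phosphorylate or move NAD had mixed estimates, 3 of 4 higher. Nnt, the mitochondrial transhydrogenase that passes hydride from NADH to NADP, was at 74.5, 151 and 78.1 CPM in the knockout and 85.9, 29.8 and 31.2 CPM in the vehicle libraries. Its log2 fold change was 1.05 (SE 0.46; edgeR adjusted p = 0.674), and vehicle replicate 1 lay above 2 of the 3 knockout libraries. Leaving out knockout replicate 2 gave an Nnt estimate of 0.64, and leaving out vehicle replicate 1 gave 1.73. Slc25a51, the mitochondrial NAD carrier, was at 55.3, 45.6 and 49.3 CPM and at 58.3, 57.6 and 57.8 CPM. The Slc25a51 groups did not overlap, but the difference was small, at -0.21 (SE 0.15; edgeR adjusted p = 0.780). The cytosolic NAD kinase Nadk was at 0.04 (SE 0.21) and the mitochondrial Nadk2 at 0.03 (SE 0.15).

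Of the 5 further sirtuins, 4 had higher and 1 a lower estimate. Sirt2, a cytosolic deacetylase and the most abundant sirtuin transcript per length at a mean of 28.6 FPKM over the 6 libraries, was at -0.22 (SE 0.17). Sirt5, a mitochondrial desuccinylase, was at 0.48 (SE 0.24; edgeR adjusted p = 0.689), and Sirt7 at 0.20 (SE 0.26).

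Among 20 genes of ADP-ribosylation, 11 had higher and 9 lower estimates. Parp14, an interferon-inducible mono-ADP-ribosyltransferase, had the smallest p of all NAD lists. It was at 6.66, 7.52 and 11.7 CPM in the knockout and 5.05, 4.96 and 3.99 CPM in the vehicle libraries, without overlap, and its log2 fold change was 0.89 (SE 0.26; edgeR adjusted p = 0.593). Parp10 was at 0.63 (SE 0.28) and Parp16, an endoplasmic reticulum member, at -0.71 (SE 0.29), the latter without overlap at 2.33, 1.53 and 1.79 CPM against 3.59, 3.07 and 2.61 CPM. Art1, the surface ADP-ribosyltransferase of muscle, was the most abundant of the list per length, at a mean of 201 FPKM over the 6 libraries, and was at -0.21 (SE 0.18). The 8 macrophage markers, all detected in every library, summed to 45.8, 138 and 135 CPM in the knockout and 65.1, 50.0 and 36.4 CPM in the vehicle libraries. Ido1 and Parp14 were highest in knockout replicate 3, where that sum was also high, though the sum was highest in knockout replicate 2. Knockout replicate 1 had a lower sum than vehicle replicate 1, but both genes were higher in it. The part of macrophages in the Ido1 and Parp14 values was not tested.

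The NAD-cleaving enzymes were weakly expressed. Cd38, the main NAD glycohydrolase of many tissues, was at 4.97, 3.27 and 5.80 CPM in the knockout and 5.02, 2.93 and 5.45 CPM in the vehicle libraries, at 0.07 (SE 0.32). Sarm1, the axonal NAD hydrolase, had at most 12 reads in a library and an estimate of 0.24 (SE 0.65). In the clearance list 4 of 5 estimates were higher. Aox1, an oxidase that acts on methylated nicotinamide, was at 59.0, 128 and 97.1 CPM in the knockout and 74.2, 43.7 and 36.1 CPM in the vehicle libraries, at 0.89 (SE 0.33; edgeR adjusted p = 0.645). Enpp1 was at 0.51 (SE 0.32), Aox3 at -0.66 (SE 0.55) and Nudt13, the most abundant of this list per length, at 0.22 (SE 0.24).

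**Figure D4:**
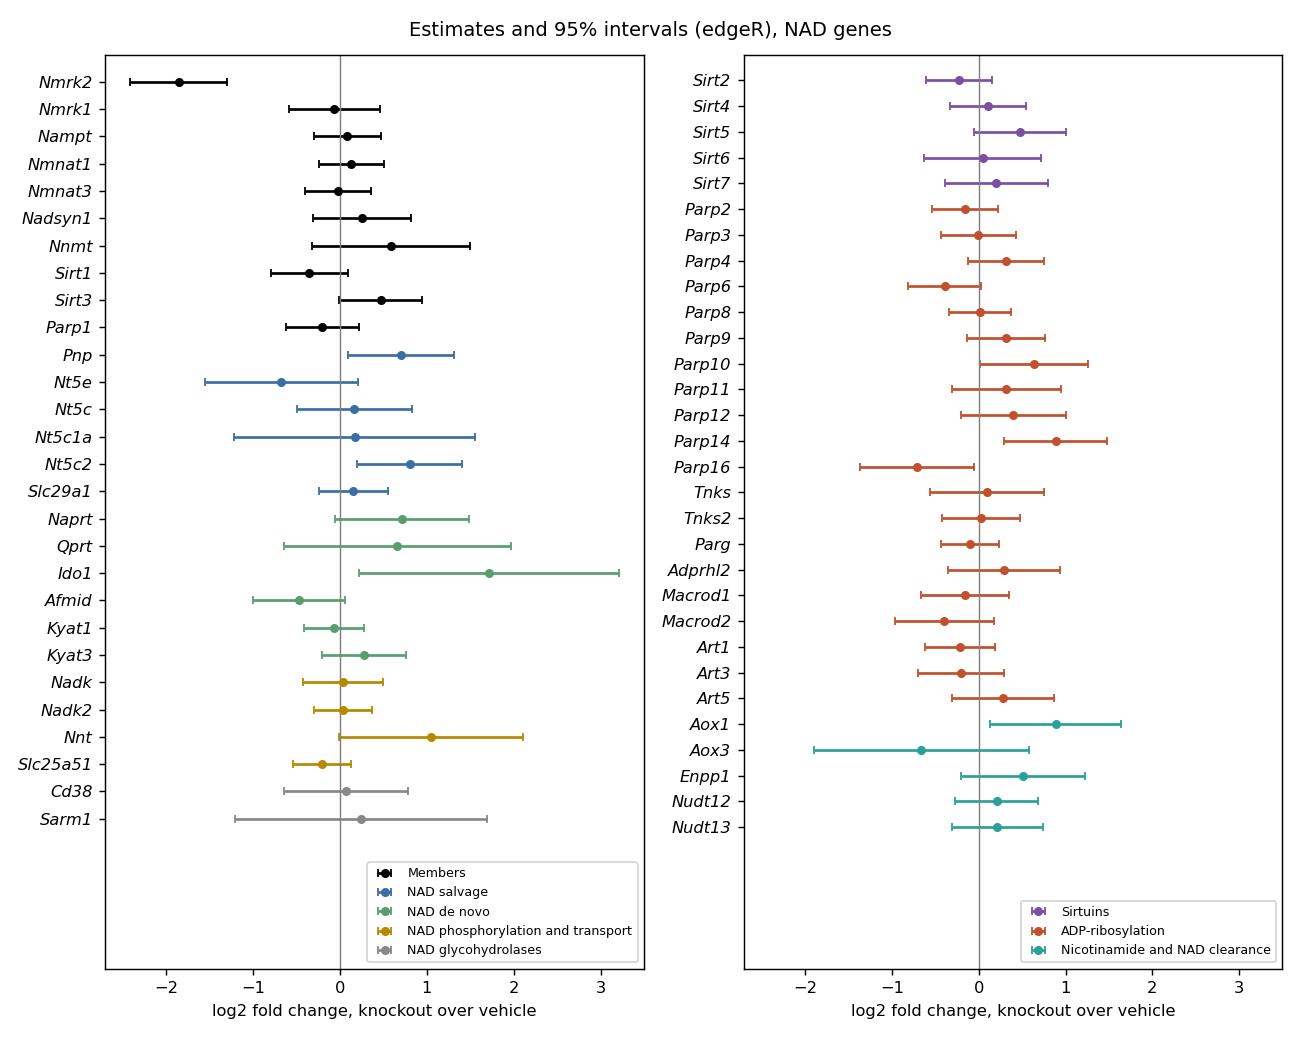
Points are log2 fold changes of knockout over vehicle from edgeR with 95% intervals for the 10 members and 48 tested genes of the 7 NAD lists, coloured by list. Nmrk2 lies at -1.86 with its interval ending at -1.30, and the lowest estimate among the 48 is -0.71.

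Genes tied to Nmrk2 in other settings gave no call. Its protein binds the integrin of muscle fibres, whose subunits are encoded by Itga7 and Itgb1 and which holds laminin. Itga7 was at -0.10 (SE 0.19), Itgb1, the most abundant of that list per length, at 0.12 (SE 0.17), Lamb1 at 0.44 (SE 0.28), Lama2 at 0.32 (SE 0.28) and the adhesion adaptor Pxn at -0.34 (SE 0.18). Of 11 laminin and integrin genes, 9 had higher estimates, beside 52.9% of all genes, and 2 lower. In edgeR 0 passed, beside 0% of all genes, and in DESeq2 0, beside 0.700%. At an unadjusted p below 0.05 in edgeR there were 0, beside 7.44% of all genes, and a list this short can show little by such counts. Itga7 was named after its value was seen, for its role.

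The energy-sensing AMPK subunits and PPAR factors were examined because Nmrk2 is known to respond to energy stress. Of 13 genes, 7 had higher estimates, beside 52.9% of all genes, and 6 lower. In edgeR 0 passed, beside 0% of all genes, and in DESeq2 0, beside 0.700%. At an unadjusted p below 0.05 in edgeR there were 2, beside 7.44% of all genes. Ppara, a fatty acid-sensing receptor, was at 25.6, 37.5 and 37.2 CPM in the knockout and 25.9, 15.3 and 8.69 CPM in the vehicle libraries, at 1.01 (SE 0.36; edgeR adjusted p = 0.640). Prkag3, the AMPK subunit of fast glycolytic fibres, was at 196, 38.8 and 115 CPM and at 194, 291 and 319 CPM, at -1.20 (SE 0.51; edgeR adjusted p = 0.665). Stk11, the upstream kinase, was at -0.23 (SE 0.15), and Prkab2, the most abundant of the list per length, at -0.62 (SE 0.46).

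The level of slow-twitch fibre genes differed between libraries, and several estimates changed when it entered the fit. The mean log2 CPM of 10 slow-fibre genes, centred over the 6 libraries, stood at 0.07, 2.45 and 0.78 for the knockout libraries and at 0.76, -1.94 and -2.13 for the vehicle libraries. The libraries nearest in this mean, knockout replicate 3 and vehicle replicate 1, held 61.5 and 321 CPM of Nmrk2. They are the single such pair, and knockout replicate 3 was the lowest library in Nmrk2. All 10 slow-fibre genes had higher estimates in knockout, beside 52.9% of all genes, with a median log2 fold change of 1.90. The list mean thus goes partly with the group, and a fit with both cannot fully separate them. With the list mean as a covariate the log2 fold change of Nmrk2 was -1.77 (SE 0.31, 95% interval -2.47 to -1.07), and edgeR called 0 genes in that fit, Nmrk2 included, with 264 at an unadjusted p below 0.05. The same covariate took the Sirt3 estimate from 0.47 to 0.14 (SE 0.25), that of Sirt1 from -0.35 to -0.07 (SE 0.25), that of Parp1 from -0.20 to -0.0040 (SE 0.22) and that of Nnmt from 0.59 to 0.06 (SE 0.56). Nmnat1 went from 0.13 to 0.05 (SE 0.22). The estimates of the remaining members grew in size. Nmrk1 went from -0.06 to 0.20 (SE 0.30) and Nadsyn1 from 0.25 to 0.37 (SE 0.35). Nampt went from 0.08 to 0.15 (SE 0.22) and Nmnat3 from -0.03 to -0.11 (SE 0.23). Outside the members the covariate took Nnt from 1.05 to 0.05, Aox1 from 0.89 to 0.10 and Ppara from 1.01 to 0.36. Among genes with a lower estimate, it took Prkag3 from -1.20 to -0.36 and Prkab2 from -0.62 to 0.10. Parp14 moved from 0.89 to 0.81 and Ido1 from 1.71 to 1.69. Of 10 fast-twitch fibre genes, 1 had a higher estimate in knockout, beside 52.9% of all genes, and 9 a lower one. Their median log2 fold change was -0.37, and the higher gene was Myh1, at 0.63 (SE 0.32). Markers of 2 other cell types were also, like Nmrk2, lower in knockout by estimate. The 3 smooth muscle markers summed to 181, 127 and 191 CPM in the knockout and 208, 284 and 251 CPM in the vehicle libraries, with Acta2 at -0.76 (SE 0.20) and Tagln at -0.61 (SE 0.18) without overlap of the groups. The 4 Schwann cell markers summed to 64.0, 97.9 and 104 CPM and to 89.1, 167 and 109 CPM, with estimates of -0.22 to -0.87. The part of any of these fibre or cell types in the Nmrk2 values was not tested. The fit with the slow-twitch covariate is no such test, since the covariate goes partly with the group.

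**Figure D5:**
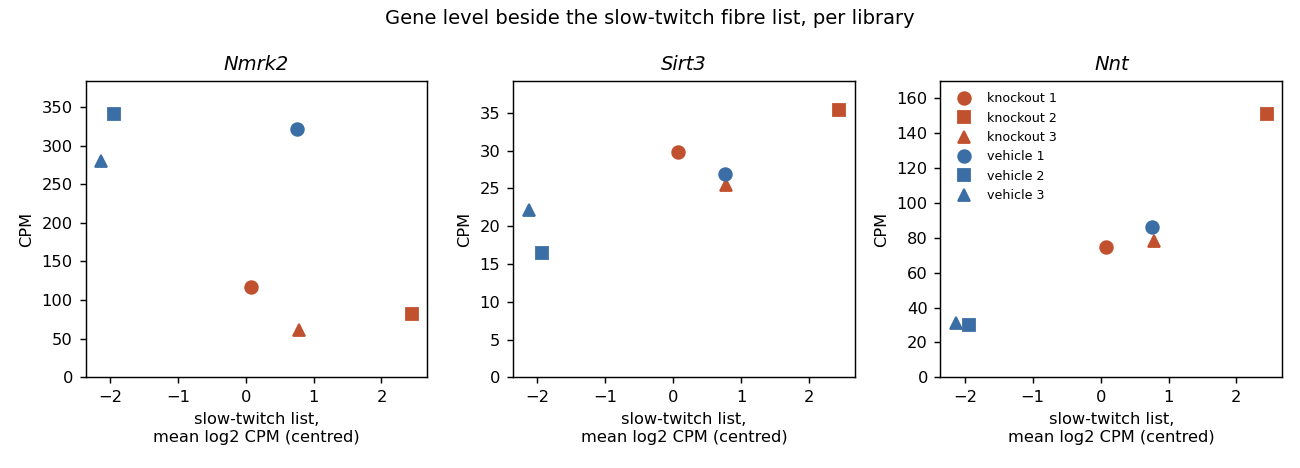
The horizontal axis gives the centred mean log2 CPM of 10 slow-twitch genes and the vertical axis the CPM of Nmrk2, Sirt3 or Nnt, with 1 point per library. Knockout replicate 3 and vehicle replicate 1, nearest on the horizontal axis, held 61.5 and 321 CPM of Nmrk2, 25.4 and 26.9 CPM of Sirt3 and 78.1 and 85.9 CPM of Nnt. They are a single pair, and knockout replicate 3 was the lowest library in Nmrk2. The part of slow fibres in these values was not tested.

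Tested genes near Nmrk2 on chromosome 10 had smaller estimates than Nmrk2, and none passed in edgeR, beside 0% of all genes. A noncoding gene on the opposite strand, Atcayos (chr10:81194609-81210877, mm10), overlaps Nmrk2, and 270 of the 1854 exonic bases of Nmrk2, 14.6%, are also exonic in Atcayos. Atcayos was at 164, 176 and 136 CPM in the knockout and 137, 113 and 100 CPM in the vehicle libraries, for a log2 estimate of 0.45 (SE 0.19; edgeR adjusted p = 0.664). Whether counting used strand is not known from the sources used here, and reads of the shared stretch are therefore uncertain. The 6 other tested genes within 50000 bases, named for their position after the data were seen, were Zbtb7a, Pias4, Eef2, Snord37, Dapk3 and Zfr2, with log2 fold changes between -0.27 (Dapk3) and 0.59 (Snord37). Sirt3 also overlaps genes on the opposite strand, Psmd13 and Ric8, at -0.09 (SE 0.16) and 0.20 (SE 0.20). On its own strand Nampt overlaps the noncoding gene Gdap10, with 36 to 324 reads per library. Nmnat3 likewise overlaps the pseudogene Gm28530, with 30 to 87 reads, and Parp1 the microRNA gene Mir6904, with 23 to 61.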

How the data were processed

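The deposited table gives, for each of the 6 libraries, a read count per gene and an FPKM value per gene. The tools were STAR 2.6.1c, featureCounts of Subread 1.5.1 and bcl2fastq, with build mm10, per the submitters' processing notes. For annotation release and strand setting, nothing is given in the sources used here. The FPKM deposited by the authors equalled the count over the listed gene length plus 1 base and the column total, within a relative tolerance of 0.001, for all 119332 values above 0, so they carry no other scaling.

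Groups came from the phenotype label. Every pair of libraries differed beyond sampling noise. Counts were fitted in R 4.3.3 with edgeR 4.0.16 (filterByExpr with minimum count 10 and total 15, leaving 15583 genes, TMM factors of 0.912 to 1.13, robust quasi-likelihood test, two-sided, Benjamini-Hochberg over all genes kept, threshold 0.05). CPM use TMM-scaled library sizes, and standard errors come from the F statistic. List means and profiles use log2 CPM with a prior count of 2. The procedure was tested on simulated counts. Alternatives were other scalings and filters, DESeq2 1.42.0, limma 3.58.1 on counts (voom) and on log2(FPKM + 0.1) or log2(FPKM + 1), a slow-fibre covariate and leaving out each library.

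The members, lists and tests were chosen with earlier results of these data known. For each list, the 3 tested genes of smallest p and the most abundant per length were named, with the 5 genes of nearest profile to Nmrk2 and the members and pathway genes nearest to it. Kyat1, Kyat3 and Adgre1 carry older symbols in the table. All 20 lists were matched in full; edgeR called 0 genes in each, as over all genes. Estimates were higher in knockout for 4 of 5 endothelial and 2 of 5 blood markers. Of 5 lymphocyte markers, 1 was tested and was lower by estimate.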

Additional observations from a re-analysis of the deposited data

How the results depend on the processing

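No paired analysis was possible because the labels give the libraries no replicate numbers that pair them across groups. The Nmrk2 difference stayed between -2.14 and -1.67 over all 15 alternatives, both ends from fits that left out a library (knockout replicate 1 and knockout replicate 3), and moved by less than the spread between replicates in each. The number of other members with a higher estimate, 5 of 9, ranged from 5 to 7, and none of these 9 was called in any alternative. Nmrk1 and Nmnat3 each kept their sign in 10 of 15 alternatives and the other 8 members in all 15. The tested genes of the 7 NAD lists gave 0 calls in every alternative. Over all genes, where edgeR called 0, DESeq2 called 109, edgeR without a low-count filter 29 and edgeR with DESeq2 size factors 4, and fits that left out a library called 0 to 24, with 24 without knockout replicate 1 and 6 without knockout replicate 2. The vehicle level of Nmrk2, 165 FPKM, was 171 as CPM per kilobase. Depth limits genes with few reads, such as Ido1, with 4 to 35 reads per library.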
